A study of Mus musculus with 12 samples.

Results

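Testes of wild-type male ICR mice that received blueberry extract at 100 mg/kg per day were compared with testes of mice that received saline, with 3 libraries in each group, 6 of the 12 libraries of the study, whose other mice received 50 or 200 mg/kg. ICR is an outbred laboratory stock, all animals were 9 months old at collection, and both groups were dosed each day through a stomach tube. The title names inflammation and falling sperm motility of ageing as what the extract was meant to ease. Polyadenylated RNA of frozen tissue was sequenced, and reads were counted per gene. Every gene with enough counts was compared, 15682 of the 21959 in the table, and each comparison was made with and without removing a trend on transcript length from every library, and with and without the third 100 mg/kg library.

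The adult testis is a mixture dominated by germ cells. Spermatogonia divide at the wall of the seminiferous tubule, spermatocytes carry out meiosis with the synaptonemal complex holding their paired chromosomes, and spermatids replace histones by protamines and build the flagellum. Sertoli cells nurse them behind a barrier of tight junctions, and Leydig cells between the tubules make testosterone. The X and Y chromosomes are silenced in spermatocytes at pachytene and partly switched on again in spermatids. Because whole tissue was sequenced, fewer cells of a type and less RNA per cell cannot be told apart in any of these results.

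Library totals were 16570442, 18027090 and 17031754 counts in saline and 16680585, 18810691 and 16310555 at 100 mg/kg. The third 100 mg/kg library stood apart from its group, since counts differed from the first by a chi-square per degree of freedom equal to 12.19 and from the second by 8.061, where other pairs within the 2 groups had 1.647 to 2.271. Marker genes of testis cell types were present in all 6 libraries, and 4 of 7 epididymis markers (Adam7, Defb15, Lcn5 and Lcn8) had no count in any of them. Whether each library came from its own mouse is not stated, and p-values therefore measure a spread between libraries that may be technical. All libraries carried 1 batch label.

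About as many genes were higher as lower at 100 mg/kg. The scaling of the libraries and the length correction both centre the fold changes, so this balance is largely set by the method. With library size alone and no length correction 4317 genes were called higher and 3916 lower. Without the length correction 4010 genes passed upward and 4202 downward at an adjusted p under 0.05 in edgeR's quasi-likelihood test, 25.6% and 26.8% of the genes tested, 52.4% in all. After it 3688 rose and 3562 fell, 23.5% and 22.7%, 46.2% in all. Most of these changes were small: 919 rises and 822 falls reached 1.5-fold. The 2 sets of calls shared 5678 genes in the same direction, which is 69.14% of the uncorrected calls and 78.32% of the corrected ones. Another 127 genes changed direction, 44 from higher to lower and 83 from lower to higher. The correction ended 1221 upward and 1186 downward calls, and made 860 upward and 585 downward calls that were absent before.

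Leaving out the third 100 mg/kg library left 7448 calls without the correction (46.9% of 15875 genes) and 6492 with it (40.9%; 20.6% higher and 20.3% lower). Of the corrected calls 6183, or 85.28%, passed again in the same direction without that library, 1067 did not, and 0 passed in the opposite direction. In all 4 fits 2324 genes rose and 2541 fell, of which 252 and 228 changed at least 2-fold and 42 and 38 at least 4-fold after the correction. The median SD within the 100 mg/kg group fell from 0.137 to 0.119 on the log2 scale with the correction, and between its first and second libraries it was 0.074 before and 0.0702 after. In saline it was 0.0908 and 0.0906. Below, log2 fold changes (± SE) are of 100 mg/kg over saline after the length correction unless named otherwise, adjusted p-values come from edgeR's quasi-likelihood test over all tested genes, and CPM (counts relative to the library's total, scaled by edgeR's TMM factors) are not length-corrected. After the correction the groups did not overlap in 53.46% of all tested genes, so a lack of overlap was common. Counts of rises and falls in gene lists stand against 23.5% and 22.7% of all genes after the correction, and 25.6% and 26.8% before it.

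Long transcripts were lower and short transcripts higher in each of the 100 mg/kg libraries. The 2190 genes whose longest transcript had 6000 bases or more had a median log2 difference from saline of -0.255, -0.318 and -0.461 in libraries 1, 2 and 3, against 0.00887, -0.000381 and -0.00726 in the saline libraries. The 76 genes under 500 bases had medians of 0.313, 0.373 and 0.609, against -0.00233, 0.0136 and -0.00475 in saline. The groups did not overlap in either class, and library 3 lay farthest from saline in both. Among long genes 8.04% were called higher and 56.1% lower before the correction, and 26.9% and 28.5% after it.

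**Figure D1:**
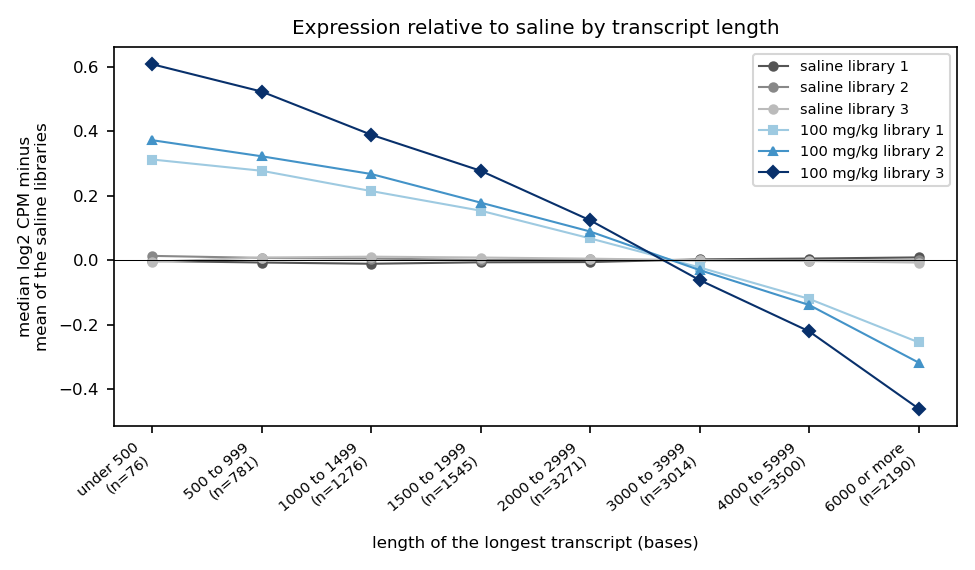
Median log2 CPM of each library minus the mean of the saline libraries (vertical axis) in 8 classes of transcript length in bases (horizontal axis, n genes below each class), before any correction. Saline libraries (grey circles) lie near 0 in every class, and the 100 mg/kg libraries (blue squares, triangles and diamonds) run from 0.313, 0.373 and 0.609 in the shortest class to -0.255, -0.318 and -0.461 in the longest.

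Across 15653 genes Spearman's rho between length and the log2 fold change was -0.467 before the correction and -0.00842 after it, where genes are not independent replicates. Single libraries gave -0.397, -0.431 and -0.491 at 100 mg/kg and 0.0612, -0.0239 and -0.057 in saline. The trend was steeper on the coding sequence than on the 3' untranslated region: rho was -0.418 with coding length and -0.3 with 3' UTR length over 13431 genes. Genes were put into 5 equal classes by each length. Those in the class of longest coding sequence and in the class of shortest 3' UTR had a median of -0.23 before the correction (448 genes). The reverse combination, short coding sequence with long 3' UTR, had a median of 0.0018 (459 genes). Part of the coding-length trend was left after the correction, with a rho of -0.121. The rho with 3' UTR length changed sign, to 0.0528. In the fit described next, which removed GC as well, rho was -0.14 with coding length and 0.146 with 3' UTR length.

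A second gradient remained. The log2 fold change rose with the GC content of the transcript, with a rho of 0.322 before the length correction and 0.269 after it. Median corrected fold changes were -0.12, -0.062, -0.03, 0.058 and 0.15 from the lowest to the highest of 5 classes of GC. In a further fit that removed a GC trend from each library as well, rho was 0.00131, 3578 genes rose and 3430 fell (22.8% and 21.9% of genes tested, 44.7% in all), and 4346 genes kept the direction that they had in all 4 fits. Library 3 was the most extreme here too: rho with GC was 0.26, 0.29 and 0.354 in the 100 mg/kg libraries, and -0.191, 0.0469 and 0.149 in saline. What produced either gradient was not tested.

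**Figure D2:**
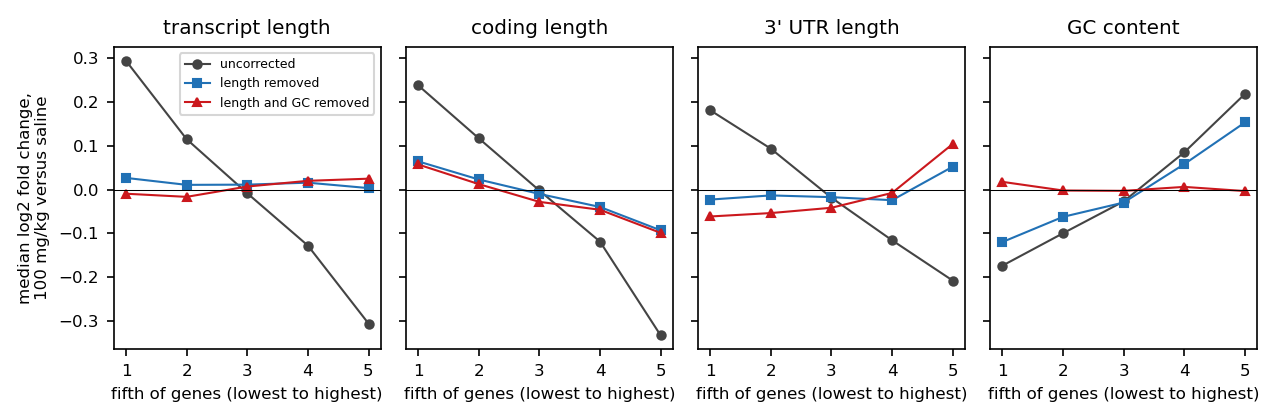
Median log2 fold change of 100 mg/kg over saline (vertical axis) in 5 equal classes of genes ranked by transcript length, coding length, 3' UTR length and GC content (horizontal axes), without correction (grey circles), with the length trend removed (blue squares) and with length and GC trends removed (red triangles). The length correction flattens the first panel, while the GC panel still runs from -0.12 to 0.15 until GC is removed as well.

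The largest rises that passed in all 4 fits were in genes close to silent in saline. No overlap between the groups after the correction was a condition for choosing these rises and the falls described next. Vgll2, a cofactor of TEAD transcription factors (chromosome 10 from 52022502 to 52028471 of GRCm38), had 1 count in the saline libraries together and 525 at 100 mg/kg, or 8.13, 10.1 and 12.2 CPM, a 523-fold ratio whose 95% interval, for counting error only, ran from 93.5 to 20700. Cxcl13, the chemokine that draws B cells into lymphoid follicles (chromosome 5 from 95956951 to 95961068), was read at 0.49, 0.169 and 0.297 CPM in saline and 8.01, 7.75 and 10.3 CPM at 100 mg/kg. Every treated library stood far above every control. Its log2 fold change was 4.47 ± 0.27 (adjusted p = 1.33e-15). Rag1, a subunit of the recombinase that assembles antigen receptor genes (chromosome 2 from 101638282 to 101649501), had 1.53, 1.46 and 0.951 CPM in saline and 12.5, 13.3 and 13.7 CPM at 100 mg/kg, without overlap (3.61 ± 0.17, adjusted p = 1.13e-18). Ibsp, a protein of bone matrix, had 1.16, 1.07 and 1.78 CPM in saline and 9.97, 11.2 and 10.8 CPM at 100 mg/kg, with the groups again well apart (2.86 ± 0.17, adjusted p = 4.53e-16). Without library 3 the fold change of Cxcl13 was 4.39, that of Rag1 3.54 and that of Ibsp 2.87. Vgll2 and Cxcl13, like Pcdh9 and Mfsd2b below, were tested only because treated libraries had enough counts. The count filter therefore favoured a rise in such genes.

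Other genes of this group coded for the adhesion protein protocadherin 9 (Pcdh9, 3.36 ± 0.32), cartilage and fibrillar collagens (Col9a3, 1.92 ± 0.14; Col27a1, 1.98 ± 0.14), the T cell signalling regulator Ubash3a (1.88 ± 0.10), the glycosyltransferase-like Galntl6 (1.84 ± 0.09) and Mfsd2b, a sphingosine-1-phosphate transporter of blood cells (1.84 ± 0.30). Galntl6 was the most abundant of them, at 12.9, 11.2 and 14.3 CPM in saline and 38.6, 40.9 and 36.9 CPM at 100 mg/kg. Its 3 treated libraries lay close together and all above the controls.

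The deepest fall was that of Pga5, which encodes a pepsinogen of gastric glands (chromosome 19 from 10668956 to 10678071). It was read at 35.9, 37.9 and 45.3 CPM in saline and 0.178, 0.527 and 0.247 CPM at 100 mg/kg, so all but a trace of its reads was missing from every treated library. The log2 fold change was -7.12 ± 0.18 (adjusted p = 2.89e-27). Crtam, a surface molecule of cytotoxic T and NK cells (chromosome 9 from 40969691 to 41004628), had 41.2, 44.1 and 46.5 CPM in saline and 7.3, 6.59 and 6.37 CPM at 100 mg/kg. The 2 groups were tight and far apart (-2.51 ± 0.089, adjusted p = 2.2e-22). The X-linked copper transporter gene Atp7a went from 4.96, 5.17 and 5.76 to 1.13, 0.844 and 0.185 CPM, with library 3 the lowest, and its log2 fold change was -2.67 ± 0.30 with that library and -2.28 without it.

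The remaining named falls were of low-abundance genes: the X-linked nuclear protein gene Aff2, Pm20d2, the acyl-CoA synthetase gene Acss3, the xenobiotic cytochrome gene Cyp2b10, the complement gene C1rb, Phyhip, the adenylate cyclase gene Adcy9, the arginase gene Arg2, Lhfpl3, the septin gene Sept14, Zfp951 and the DNA repair nuclease gene Fan1. Their log2 fold changes ran from -2.92 (Aff2) to -1.87 (Fan1). Pga5 and Crtam were the only genes among the 15 falls above 10 CPM in saline. Pga5, Atp7a, Aff2, Pm20d2, Acss3, Cyp2b10, C1rb, Phyhip and Adcy9 had few counts in at least 1 library of 100 mg/kg. They were tested only because other groups had enough counts, so the count filter favoured a fall in them.

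**Figure D3:**
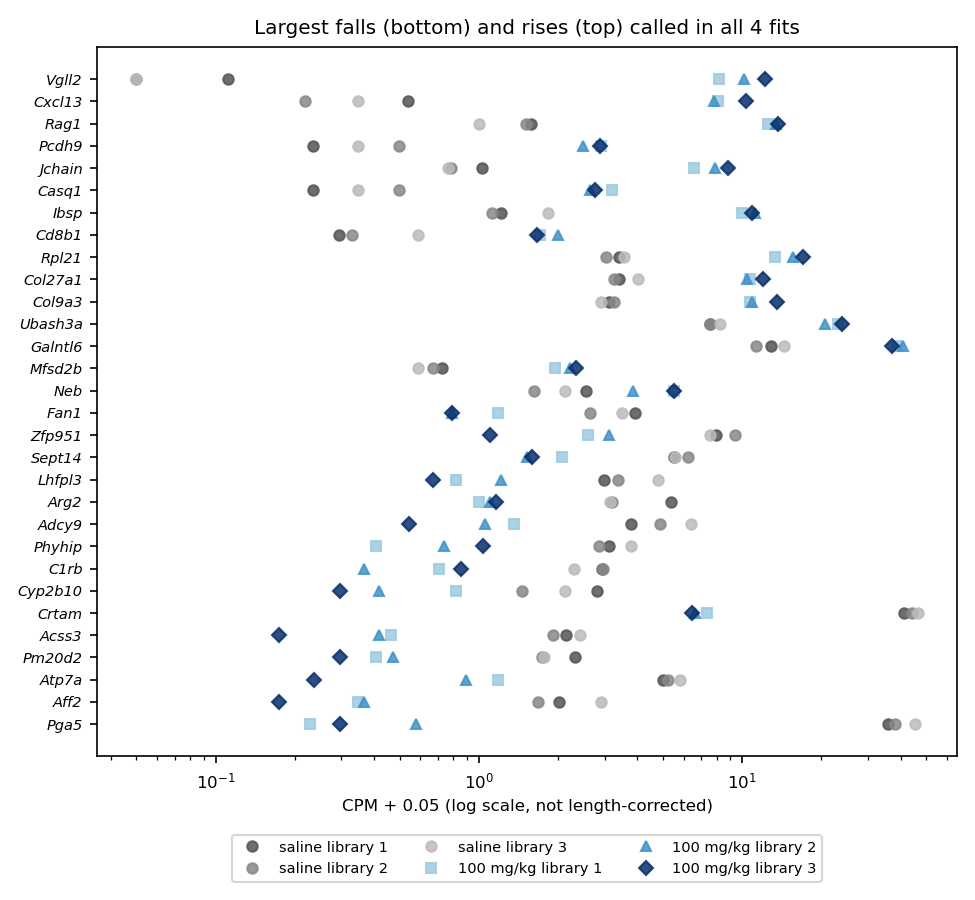
CPM plus 0.05 on a log axis (horizontal) for the 15 largest rises and the 15 largest falls called in all 4 fits, with 1 point per library (grey circles, saline; blue symbols, 100 mg/kg). Blue and grey points do not overlap for any of the 30 genes, which were chosen for having no overlap after the correction. Library 3 (dark diamonds) lies lowest in Atp7a, Acss3, Adcy9 and Zfp951, among other falls.

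Genes of class II antigen presentation were higher at 100 mg/kg. Class II molecules display peptides to helper T cells, and their promoters carry conserved X and Y boxes that bind RFX and NF-Y and are switched on through the coactivator CIITA. Of 8 tested members 5 rose and 0 fell, against 23.5% and 22.7% of all genes, and the list's median was 0.83 (1.07 before the correction), where that of all genes was 0.014. H2-Aa, which encodes an alpha chain of class II, was read at 0.919, 0.112 and 0.653 CPM in saline and 2.02, 1.21 and 1.92 CPM at 100 mg/kg. Each treated library was above each control, though by little between the lowest and the highest. The log2 fold change was 1.63 ± 0.39 (adjusted p = 0.000892). H2-Aa was tested only because treated libraries had enough counts, so the count filter favoured a rise in it. For H2-Eb1, a beta chain, the libraries gave 1.23, 1.57 and 2.02 CPM in saline and 4.45, 5.27 and 6.56 CPM at 100 mg/kg, without overlap (1.56 ± 0.20, adjusted p = 7.8e-08).

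H2-Ab1, the partner chain of H2-Aa, had 3.12, 4.21 and 3.15 CPM in saline and 9.61, 9.81 and 12.6 CPM at 100 mg/kg, which places every treated library well above the controls (1.33 ± 0.14, adjusted p = 1.62e-09). H2-DMb1, a chain of the peptide-loading protein DM, had 1.53, 1.4 and 1.25 CPM in saline and 3.62, 3.74 and 4.33 CPM at 100 mg/kg (1.24 ± 0.25, adjusted p = 0.0001). The invariant chain gene Cd74 rose by less (0.43 ± 0.18), with a call that was lost without library 3 (0.23, adjusted p = 0.346), and H2-DMa (0.21 ± 0.11), H2-DMb2 (0.29 ± 0.34) and the protease gene Ctss (-0.26 ± 0.13) did not pass. These genes have close copies, so their counts are uncertain to the extent that reads were shared.

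Promoter sequences are shown for the 4 class II and DM chain genes that rose, because class II promoters are known for these boxes; that of the fifth risen gene, Cd74, was not looked up. Of the 4, 3 matched an entry of RefSeq (GRCm38.p6) and H2-Ab1 did not. Each is the 150 bases before the RefSeq start site, 5' to 3' on the strand of the gene: H2-Aa at chr17:34287824-34287973 (minus strand), H2-Eb1 at chr17:34305717-34305866 (plus strand) and H2-DMb1 at chr17:34153041-34153190 (plus strand). Capitals mark CCAAT, the core of the Y box, searched on both strands as CCAAT or ATTGG, and AACTGATGATGCT, the longest run of letters that H2-Eb1 and H2-DMb1 share, which was searched on both strands and does not overlap the first motif.
H2-Aa: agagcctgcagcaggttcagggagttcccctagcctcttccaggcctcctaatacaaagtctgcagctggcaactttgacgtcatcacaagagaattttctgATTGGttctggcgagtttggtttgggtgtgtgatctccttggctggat
H2-Eb1: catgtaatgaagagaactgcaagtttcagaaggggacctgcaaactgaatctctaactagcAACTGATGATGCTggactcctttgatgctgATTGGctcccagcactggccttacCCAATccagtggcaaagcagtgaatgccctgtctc
H2-DMb1: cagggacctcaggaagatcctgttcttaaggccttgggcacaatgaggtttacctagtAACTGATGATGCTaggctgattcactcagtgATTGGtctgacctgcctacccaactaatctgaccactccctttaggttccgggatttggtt

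The Y box core began 48 bases before the start in H2-Aa, 59 in H2-Eb1, with a second copy in the other orientation 35 bases before it, and 61 in H2-DMb1. It was in 24.5% of 32851 promoter windows of the same length. The shared run of 13 letters began 89 bases before the start in H2-Eb1 and 92 in H2-DMb1, upstream of the Y box core in both. It was in 2 of the 32851 windows (0.00609%), these promoters themselves. Since the run was taken from them, its presence in both was fixed, and the share does not measure how specific it is. A match describes the sequence and says nothing of binding in these libraries.

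Of 14 tested lymphocyte genes 6 rose, 1 (Crtam) fell and 7 did not pass, with a median of 0.60. Their CPM summed to 65.1, 68.8 and 69.6 in saline and 62, 63.3 and 69.2 at 100 mg/kg, and the groups overlapped. Crtam made most of the saline sums, at 41.23, 44.15 and 46.46 CPM, against 7.3, 6.59 and 6.37 CPM at 100 mg/kg. The sums therefore hide the rises of other members. Jchain, the joining chain of secreted immunoglobulin, had 0.98, 0.73 and 0.713 CPM in saline and 6.53, 7.8 and 8.78 CPM at 100 mg/kg, and all treated libraries were far above the controls (3.15 ± 0.22, adjusted p = 3.48e-14). Cd3d, a chain of the T cell receptor complex, had 10.9, 12.4 and 10.9 CPM in saline and 19.6, 21 and 23.9 CPM at 100 mg/kg without overlap (0.71 ± 0.10). Cd8b1 (2.06 ± 0.37), Cd3g (1.94 ± 0.71) and the kinase gene Zap70 (0.71 ± 0.26) rose too, the last not without library 3 (adjusted p = 0.102). Cd8b1, with 4, 5 and 9 counts in saline, and Cd3g, with 4, 1 and 2, were tested only because treated libraries had enough counts. Ptprc, the common leukocyte gene CD45, did not pass (-0.59 ± 0.31), nor did the T cell gene Cd4 (0.50 ± 0.36). The 9 lymphocyte markers in the table summed to 4.34 to 5.05 CPM in saline and 11.9 to 12.4 CPM at 100 mg/kg, of which Jchain made the larger part, and Cd8a was at 0 in all 6 libraries.

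Of 17 macrophage genes 3 rose and 4 fell, against 23.5% and 22.7% of all genes. The 5 macrophage markers summed to 41.5 to 44.3 CPM in saline and 47.4 to 51.7 at 100 mg/kg, values that are not length-corrected. The scavenger receptor gene Cd163 (-1.11 ± 0.20), the fractalkine receptor gene Cx3cr1 (-0.62 ± 0.16), the efferocytosis receptor gene Mertk (-0.50 ± 0.15) and the mannose receptor gene Mrc1 (-0.43 ± 0.079) fell, and Marco (1.86 ± 0.62), the IgG receptor gene Fcgr3 (0.38 ± 0.094) and the lysozyme gene Lyz2 (0.30 ± 0.061) rose. Their list had a median of 0.02 after the correction, against 0.30 before it. In class I presentation 7 of 14 genes rose and 2 fell (50% and 14.3%). The peptide transporter gene Tap1 rose (3.8, 3.65 and 3.27 CPM in saline and 10.1, 9.02 and 11.1 CPM at 100 mg/kg, 1.58 ± 0.15, adjusted p = 1.15e-10). The heavy chain gene H2-D1 fell (50.4, 52.1 and 50.4 CPM in saline and 28.3, 33.1 and 37 CPM at 100 mg/kg, -0.76 ± 0.073, adjusted p = 2.68e-10). Of 22 interferon response genes 2 rose, Irf9 among them (0.61 ± 0.16), and 2 fell, Gbp7 (-0.99 ± 0.25) and Irgm1 (-0.86 ± 0.24).

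Of 34 tested genes of NF-kB signalling and cytokines, 7 rose and 8 fell, shares close to the 23.5% and 22.7% of all genes. Cxcl13 stood far above the others. The inhibitor gene Nfkbib rose (0.36 ± 0.047) and the leukocyte adhesion gene Vcam1 fell (124, 132 and 130.0 CPM in saline and 103, 96.1 and 98.8 CPM at 100 mg/kg, -0.26 ± 0.043, adjusted p = 5.1e-06). The subunit genes Nfkb1 (0.047 ± 0.092, adjusted p = 0.708) and Rela (0.15 ± 0.063, adjusted p = 0.0575) and the cytokine gene Il1b (-0.38 ± 0.32, adjusted p = 0.346) did not pass. Tlr4, the receptor for bacterial lipopolysaccharide, passed downward with all libraries (-1.08 ± 0.43, adjusted p = 0.0384) and not without library 3 (adjusted p = 0.051), at under 1 CPM throughout.

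Of 25 genes of striated muscle 12 had enough counts to be tested. Of these 7 rose, Vgll2 among them, and 0 fell, with a median of 0.59 (0.48 without the correction). Vgll2 and Casq1 were tested only because treated libraries had enough counts, so the count filter favoured a rise in both. Casq1, the calcium store protein of muscle, had 0.184, 0.449 and 0.297 CPM in saline and 3.15, 2.58 and 2.72 CPM at 100 mg/kg (2.98 ± 0.33, adjusted p = 3.48e-09). Ryr1, its calcium release channel, had 4.53, 3.6 and 4.81 CPM in saline and 8.66, 9.33 and 9.4 CPM at 100 mg/kg, and the groups were well apart (1.58 ± 0.14, adjusted p = 4.2e-11). The giant sarcomere genes Neb (1.82 ± 0.20) and Ttn (1.45 ± 0.11) rose before the correction as well, by 1.25 and 0.70. For these giants the corrected value rests on a trend fitted where few genes are as long. Defining markers of contractile muscle stayed low: Ckm, Acta1, Myh4 and Tnnt3 together summed to 1.21 to 1.29 CPM in saline and 1.33 to 1.9 CPM at 100 mg/kg. Some other tissue markers moved as well. Red blood cell genes summed to 31 to 33.9 CPM in saline and 41.8 to 51.3 at 100 mg/kg, through Hbb-bs and Hba-a1, while Alas2, Hba-a2 and Hbb-bt overlapped. Adipose genes summed to 25.9 to 29.1 and 37.1 to 51.7. That rise was in Adipoq (401, 480 and 452 counts in saline, 575, 737 and 804 at 100 mg/kg), while Plin1 and Cidec overlapped. The part of such cells in these results was not tested.

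Ribosomal protein genes, which are mostly short, differed sharply with and without the correction. Of 83 tested genes of the cytosolic ribosome 65 were called higher and 0 lower before it, with a median of 0.40, and 31 rose and 9 fell after it, with a median of 0.11. Their median differences from saline were 0.062, 0.065 and 0.15 in libraries 1, 2 and 3. Rps2, of the small subunit, had 54.8, 52.5 and 55.9 CPM in saline and 146, 152 and 176 CPM at 100 mg/kg, and the treated libraries were all far above the controls (1.24 ± 0.049 after and 1.54 before the correction, adjusted p = 6.36e-21). Rpl21, of the large subunit, had 3.37, 2.98 and 3.5 CPM in saline and 13.3, 15.6 and 17 CPM at 100 mg/kg (2.06 ± 0.14). Rpl26 went from 122, 122 and 124 to 243, 258 and 293 CPM (0.72 ± 0.043). All have processed pseudogenes, and their counts are uncertain for that reason. Among the 9 that fell were the X-linked Rps4x (-0.41 ± 0.065), Rpl36a (-0.39 ± 0.10) and Rpl10 (-0.24 ± 0.056), and Rpl10l (-0.26 ± 0.047), the autosomal copy of Rpl10 that acts in male meiosis. None of these 4 was called before the correction, and their CPM were level with the controls or, for Rpl10, slightly above.

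The mitochondrial ribosome kept more of its rise. Of 77 genes 58 were called higher before the correction and 40 after it, with 2 falls, and the median went from 0.35 to 0.24. The median of the list was 0.18, 0.20 and 0.26 above saline in libraries 1, 2 and 3 and stayed at 0.24 when GC was removed too. Mrps10 had 7.84, 10.7 and 8.55 CPM in saline and 16.3, 17.4 and 19.1 CPM at 100 mg/kg, so that no treated library was near a control (1.07 ± 0.11, adjusted p = 1.31e-09). Mrps9 had 32.5, 27.6 and 30.8 CPM in saline and 44.2, 51.8 and 54.5 CPM at 100 mg/kg (0.64 ± 0.068, adjusted p = 1.11e-09). Mrpl13 (0.61 ± 0.068) and Mrps17 (0.65 ± 0.082) rose by similar amounts, and Mrpl16 (-0.33 ± 0.073) and Mrpl24 (-0.27 ± 0.065) fell.

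Nuclear genes of the respiratory chain lost many of their upward calls with the correction. In complex I, which feeds electrons from NADH into the chain, 25 of 37 genes were called higher before the correction and 14 after it, with 6 falls, and the median went from 0.39 to 0.092. In complexes II to IV 9 of 29 rose and 6 fell (median 0.0089). ATP synthase genes rose in 9 of 16 cases and fell in 0 (median 0.17). Atp5e, its epsilon subunit, had 19.97, 24.5 and 22.5 CPM in saline and 54.7, 60.4 and 80.3 CPM at 100 mg/kg, without overlap (1.35 ± 0.10, adjusted p = 4.36e-09), and Ndufb5 of complex I had 57.8, 55.6 and 58 CPM in saline and 78.2, 80.4 and 100.0 CPM at 100 mg/kg (0.60 ± 0.072). Cox7b2, a testis form of a complex IV subunit, had 191, 184 and 186 CPM in saline and 176, 189 and 201 CPM at 100 mg/kg, which overlap, and it was called lower after the correction (-0.41 ± 0.041, from 0.015 before).

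Genes encoded by mitochondrial DNA ran the other way after the length correction. Of 12 tested 11 fell after the correction, with a median of -0.36, where 2 were called lower before it (median -0.056) and 4 when GC was removed too (median -0.15). With a GC trend alone removed the median was 0.29, so the direction of this list depended on the correction. mt-Nd5, a core subunit of complex I, was lower in all fits, at 1106, 1015 and 980.0 CPM in saline and 639.6, 642 and 688 CPM at 100 mg/kg with no overlap (-0.82 ± 0.041, adjusted p = 2.16e-16; -0.66 before the correction). mt-Nd1 had 2584, 2365 and 2330 CPM in saline and 2041, 2149 and 2498 CPM at 100 mg/kg, where library 3 reached the level of the controls, and its corrected value of -0.45 ± 0.037 compares with -0.12 uncorrected, which did not pass. Mitochondrially encoded genes together took 1.425 ± 0.0584% of counts in saline and 1.348 ± 0.0594% at 100 mg/kg (SD, n = 3; 2-sided exact permutation p = 0.3, where 3 against 3 can give no p below 0.1).

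Genes of meiotic chromosome structure mostly fell. Of 19 tested genes of the synaptonemal complex and cohesin 12 fell and 1 rose, with a median of -0.39 (-0.44 before the correction and -0.29 with GC removed). Sycp1, the transverse filament of the complex (chromosome 3 from 102818499 to 102936100), had 217, 196 and 199.5 CPM in saline and 75.2, 68.8 and 64.2 CPM at 100 mg/kg. All treated libraries were far below the controls, library 3 the lowest (-1.51 ± 0.049, adjusted p = 1.91e-23). Sycp2, of the lateral element, had 303, 279 and 281 CPM in saline and 106, 102 and 80.1 CPM at 100 mg/kg (-1.34 ± 0.05, adjusted p = 1.01e-19). Sycp3, its partner, had 90.1, 89.99 and 89.3 CPM in saline and 51, 50.5 and 43.5 CPM at 100 mg/kg (-1.17 ± 0.066). The groups lay far apart for all 3.

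The meiotic cohesin genes Rad21l (-1.59 ± 0.25), Smc1b (-1.03 ± 0.048) and Stag3 (-0.39 ± 0.037) and the axis gene Hormad1 (-0.66 ± 0.044) fell in the same way, while Rec8, another meiotic cohesin, rose by 0.20 ± 0.048 but did not pass with GC removed (0.08). Hormad2 (0.015 ± 0.091), Syce1 (-0.0014 ± 0.036) and Syce2 (-0.075 ± 0.043) did not pass; the last 2 code for the central element. Meiotic recombination genes were divided, with 7 rises and 11 falls among 37 (18.9% and 29.7%, against 23.5% and 22.7% of all genes). Spo11, the enzyme that cuts DNA to start recombination, had 29.4, 31.3 and 32.6 CPM in saline and 44.9, 44.2 and 44.4 CPM at 100 mg/kg, with every treated library higher (0.58 ± 0.063, adjusted p = 1.69e-09), and Msh5, of the crossover complex, rose by 0.63 ± 0.10. Tex15 had 107, 104 and 110.3 CPM in saline and 58.3, 54 and 53.1 CPM at 100 mg/kg (-0.60 ± 0.049, adjusted p = 3.09e-12), and Ankrd31, which helps to place the breaks, fell by about the same amount (-0.59 ± 0.058).

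Genes of the piRNA pathway, which silences transposons in germ cells, fell in 13 of 25 cases and rose in 4 (median -0.16). Piwil1, the Argonaute protein of pachytene piRNAs, had 368, 369 and 370.5 CPM in saline and 264, 242 and 201 CPM at 100 mg/kg, with library 3 lowest and no overlap (-0.55 ± 0.048, adjusted p = 3.88e-10). Its transcription factor gene Mybl1 fell (-0.54 ± 0.053), as did the helicase gene Ddx4 (-0.64 ± 0.074) and the Tudor genes Tdrd6 (-0.43 ± 0.035) and Tdrd1 (-0.40 ± 0.047). Of 23 genes of pachytene and later spermatocytes 12 fell and 4 rose (median -0.21), among them Ccna2 (-0.49 ± 0.13), Nek2 (-0.48 ± 0.045) and Hspa2 (-0.35 ± 0.036), while Cdk1 rose (0.34 ± 0.066). In spermatogonia 6 of 25 fell, a share close to the 22.7% of all genes, and 2 rose. Zbtb16, the stem cell factor PLZF, had 6.07, 5.22 and 4.63 CPM in saline and 1.66, 1.79 and 1.24 CPM at 100 mg/kg (-1.55 ± 0.19, adjusted p = 2.33e-08), and Kit, of differentiating spermatogonia, had 45.8, 45.1 and 43 CPM in saline and 28.2, 25.7 and 25.2 CPM at 100 mg/kg (-0.55 ± 0.066). Gfra1 and Sall4, other stem cell markers, had counts of 101, 108 and 87 and of 54, 54 and 36 in saline and of 108, 109 and 68 and of 61, 56 and 38 at 100 mg/kg, and neither passed. The 5 spermatogonia markers summed to 67.2 to 72.2 CPM in saline and 44.7 to 53 at 100 mg/kg.

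Marker sums, which are not length-corrected, differed too: the 4 spermatocyte markers summed to 1780 to 1810 CPM in saline and 1190 to 1380 at 100 mg/kg, the 3 round spermatid markers to 750 to 768 and 907 to 985, and the 4 markers of elongating spermatids to 12200 to 12300 and 14400 to 18100. The lists of round spermatid genes and of protamines and chromatin remodelling had medians of 0.20 and 0.27 before the correction. After it they had -0.0042 and 0.0245, so the higher spermatid sums had no counterpart there. The part of a changed mixture of germ cells in the results was not tested.

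Spermatid genes were called higher before the correction and divided after it. Of 29 round spermatid genes 18 were called higher and 5 lower before and 12 and 8 after, with medians of 0.20 and -0.0042. Prm1, the protamine that packs sperm DNA, had 3078, 2945 and 3049 CPM in saline and 3663, 3938 and 4837 CPM at 100 mg/kg. All treated libraries were higher in these uncorrected values, yet for a transcript of 469 bases the correction took the log2 fold change from 0.46 (adjusted p = 0.000532) to 0.0013 ± 0.032 (adjusted p = 0.978). Tnp1, a transition protein that precedes protamines, stayed higher (22.9, 36.3 and 31.4 CPM in saline and 51.9, 60.3 and 74.5 CPM at 100 mg/kg; 0.57 ± 0.12, adjusted p = 0.00236). Psme4, the proteasome activator that acts on histones in spermatids, had 746, 753 and 751 CPM in saline and 468, 436 and 357 CPM at 100 mg/kg and fell (-0.55 ± 0.042, adjusted p = 4.29e-12), and Rnf8, the ubiquitin ligase of the same histone removal, rose (1.00 ± 0.18). Of 11 testis serine kinase genes 6 rose, Tssk5 most (8.21, 8.09 and 9.03 CPM in saline and 15.9, 15.9 and 18.1 CPM at 100 mg/kg; 0.84 ± 0.10), but the list's median of 0.24 became -0.012 when GC was removed too.

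After the correction flagellar genes other than the smaller dynein chains fell more often than they rose. Dynein heavy chains, the motors of the axoneme and among the longest genes, went from 12 lower calls and 0 higher of 15 to 9 falls and 2 rises, with medians of -0.59 and -0.14. Dnah12 had 161, 158 and 146 CPM in saline and 77, 72.6 and 58.5 CPM at 100 mg/kg (-0.72 ± 0.05 after and -1.16 before, adjusted p = 5.71e-14). Dnah17, of the outer arm in sperm, had 433, 429.5 and 438 CPM in saline and 278, 250.4 and 213 CPM at 100 mg/kg (-0.32 ± 0.037, adjusted p = 5.13e-09). Dnah1, an inner arm chain whose loss causes flagellar defects, was called lower before (-0.36, adjusted p = 6.22e-07) and did not pass after the correction (0.10 ± 0.043, adjusted p = 0.056). In intraflagellar transport 19 of 37 genes fell and 6 rose (median -0.15), with Ift74 at 318, 271 and 287 CPM in saline and 214, 207 and 194 CPM at 100 mg/kg (-0.63 ± 0.051) and Cluap1 among the rises (0.72 ± 0.089).

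Of 30 genes of the fibrous sheath, outer dense fibres and related cytoskeleton 12 fell and 9 rose (median -0.071), where before the correction 14 were called higher and 10 lower (median 0.089). Cylc2, a cylicin of the calyx that lines the sperm head, had 371, 344 and 347 CPM in saline and 171, 165 and 152 CPM at 100 mg/kg, far lower in every treated library (-1.31 ± 0.051, adjusted p = 2.46e-17), and Fsip2, a fibrous sheath partner, fell (-0.66 ± 0.039). Akap4, the main sheath protein and X-linked, had 2914, 2904 and 2928 CPM in saline and 2414, 2407 and 2199 CPM at 100 mg/kg (-0.33 ± 0.032, adjusted p = 1.67e-10). Of 31 genes of CatSper, the calcium channel of sperm, and other sperm transporters 10 fell and 6 rose (32.3% and 19.4%, against 22.7% and 23.5% of all genes). The sperm exchanger gene Slc9c1 (-0.58 ± 0.047), the channel subunit gene Catsperb (-0.58 ± 0.048) and the calcium pump gene Atp2b4 (-0.54 ± 0.049) fell, and Catsper1 did not pass (-0.093 ± 0.043, adjusted p = 0.0703). Acrosome and egg fusion genes were evenly divided, 17 rises and 18 falls of 45 after the correction, where 20 were called higher and 9 lower before it, with Spaca6, needed for fusion, higher (22.2, 24.7 and 24.4 CPM in saline and 34.8, 36.3 and 38.8 CPM at 100 mg/kg; 0.73 ± 0.072) and the chaperone gene Clgn lower (-0.35 ± 0.038).

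Sertoli cell genes fell in 13 of 29 cases and rose in 2 (median -0.18, and -0.042 before the correction). Wt1, a transcription factor that maintains Sertoli cells, had 31.5, 32.9 and 29 CPM in saline and 21.5, 22.3 and 19.9 CPM at 100 mg/kg, without overlap (-0.55 ± 0.072, adjusted p = 9.43e-08). Aldh1a1, which makes retinoic acid, had 545, 521 and 540.5 CPM in saline and 378, 396 and 382 CPM at 100 mg/kg (-0.57 ± 0.035, adjusted p = 1.03e-15), and the stem cell factor gene Kitl fell (-0.66 ± 0.10). Clu, an abundant secreted protein, had 819.6, 821 and 834 CPM in saline and 734, 748 and 822 CPM at 100 mg/kg, where library 3 overlapped the controls, and passed downward at -0.27 ± 0.033 with the correction and -0.10 without it. The 5 Sertoli markers summed to 902 to 919 CPM in saline and 828 to 903 at 100 mg/kg.

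Junction genes of the blood-testis barrier fell in 13 of 28 cases and rose in 5 (median -0.19). F11r, the junctional adhesion molecule JAM-A, had 35, 34.7 and 33.5 CPM in saline and 22.7, 20.2 and 16.4 CPM at 100 mg/kg (-0.87 ± 0.084, adjusted p = 1.86e-10). Tjp1, the scaffold ZO-1, had 116, 116 and 118 CPM in saline and 69.1, 73.5 and 54.6 CPM at 100 mg/kg, again without overlap (-0.52 ± 0.052, adjusted p = 3.87e-10). Beta-catenin (Ctnnb1, -0.81 ± 0.12), occludin (Ocln, -0.49 ± 0.17, not called with GC removed) and N-cadherin (Cdh2, -0.42 ± 0.056) fell, and p120-catenin rose (Ctnnd1, 1.02 ± 0.13).

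In Leydig cells 8 of 20 genes fell and 0 rose, where 3 had been called higher and 6 lower before the correction, and the median was -0.11. Star, which brings cholesterol into mitochondria, had 119, 116 and 122 CPM in saline and 85.6, 85.8 and 78.2 CPM at 100 mg/kg, a log2 fold change of -0.41 ± 0.044 (adjusted p = 1.32e-09). Cyp11a1, which makes pregnenolone from it, had 146, 149 and 145 CPM in saline and 93.7, 101 and 110.2 CPM at 100 mg/kg (-0.49 ± 0.051, adjusted p = 9.52e-10). The groups did not overlap for either gene, before or after the correction. Hsd17b3, the last enzyme of testosterone synthesis, had 84.4, 83.6 and 80.7 CPM in saline and 71.5, 70.9 and 77 CPM at 100 mg/kg (-0.44 ± 0.051), and Cyp17a1 fell by less (-0.15 ± 0.035, adjusted p = 0.000798) and was not called without the correction (-0.058). The luteinizing hormone receptor gene Lhcgr fell as well (-0.44 ± 0.085). Cholesterol synthesis genes had 8 falls and 2 rises of 24 (33.3% and 8.33%, against 22.7% and 23.5% of all genes), with Idi1 (-0.68 ± 0.07) lower. The 5 Leydig markers summed to 799 to 822 CPM in saline and 679 to 731 at 100 mg/kg.

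Chaperone genes fell in 18 of 36 cases and rose in 7 (median -0.11). Hsp90aa1, abundant in germ cells, had 2922, 2797 and 2857 CPM in saline and 1983, 1884 and 1656 CPM at 100 mg/kg, the lowest of all in library 3 (-0.61 ± 0.039, adjusted p = 1.5e-13). The endoplasmic reticulum chaperone genes Hsp90b1 (-0.94 ± 0.10) and Hspa5 (-0.48 ± 0.047) fell together with the mitochondrial Hspd1 (-0.57 ± 0.071), and the testis gene Hspa1l rose (0.60 ± 0.076). Antioxidant genes had 10 rises and 13 falls of 40 after the correction (median -0.13) and 15 higher and 7 lower calls before it (median 0.074). Catalase (Cat) had 14.2, 15.1 and 14.5 CPM in saline and 8.61, 8.23 and 10.8 CPM at 100 mg/kg, all treated libraries below the controls (-0.74 ± 0.11, adjusted p = 8.12e-07), and glutathione reductase (Gsr) fell (-0.44 ± 0.093). The superoxide dismutase genes Sod1 (0.41 ± 0.061) and Sod2 (0.42 ± 0.071) and Gclm, of glutathione synthesis (0.54 ± 0.061), rose. The peroxidase gene Gpx4 rose by 0.14 ± 0.041 and turned to -0.056 with GC removed. Hmox1 (-0.20 ± 0.13, adjusted p = 0.241) and Nqo1 (-0.20 ± 0.18, adjusted p = 0.39), targets of NRF2, did not pass.

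Of 26 immediate early genes, which respond to stimuli within minutes, 7 rose (26.9%, close to the 23.5% of all genes) and 2 fell (7.69%, against 22.7%). Egr3 had 6.31, 4.16 and 5.64 CPM in saline and 13.7, 12.8 and 14 CPM at 100 mg/kg, without overlap (1.43 ± 0.13, adjusted p = 2.27e-11). Egr1 had 4.41, 6.01 and 4.1 CPM in saline and 11, 9.7 and 10.9 CPM at 100 mg/kg, likewise without overlap (1.26 ± 0.14, adjusted p = 2.71e-09). Fosl2 (-0.66 ± 0.17) and Klf6 (-0.51 ± 0.11) fell. Among sirtuin and senescence genes Sirt2, a cytoplasmic deacetylase, had 121, 129 and 135 CPM in saline and 209, 221 and 247 CPM at 100 mg/kg (0.69 ± 0.044, adjusted p = 4.9e-15). Sirt1 passed downward (-0.21 ± 0.063, adjusted p = 0.00613) but not with GC removed (adjusted p = 0.0862), and the cell cycle inhibitor gene Cdkn1a did not pass (0.12 ± 0.12).

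**Figure D4:**
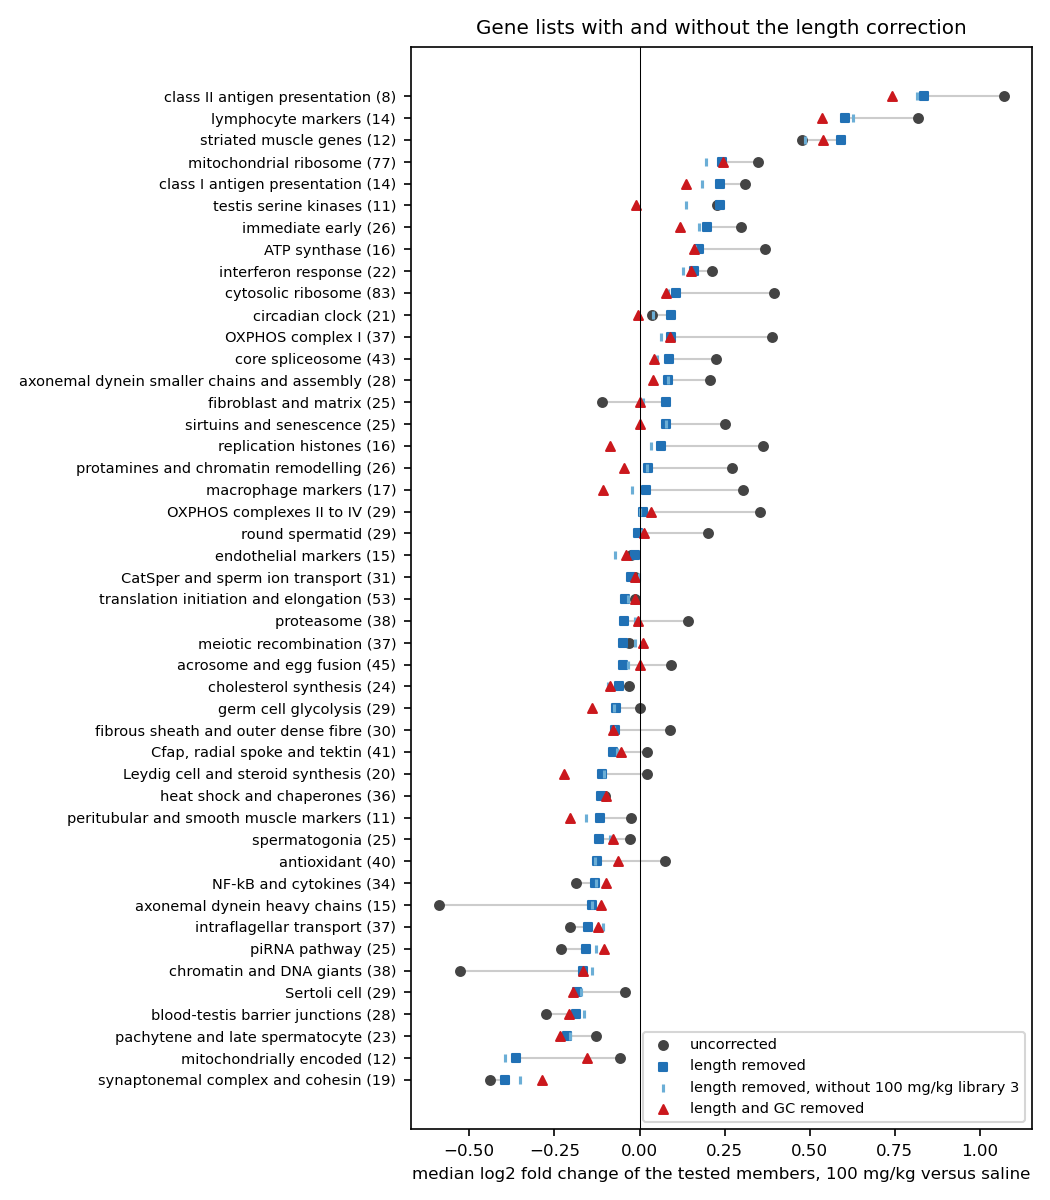
Median log2 fold change of the tested members of 46 gene lists (n in brackets), without correction (grey circles), with the length trend removed (blue squares), the same without the third 100 mg/kg library (light bars) and with length and GC trends removed (red triangles). The cytosolic ribosome, respiratory chain, dynein heavy chain and chromatin lists move far toward 0 with the correction, and class II, lymphocyte and striated muscle genes at the top and the synaptonemal complex at the bottom stay apart from it.

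Genes of the X chromosome were lower as a group. Of 674 tested 295 fell and 26 rose, 43.8% and 3.86%, against 21.7% and 24.5% of 14926 autosomal genes, and the median was -0.28 against 0.026. Grouping by chromosome was chosen after the data were seen. Their median lay 0.0244, -0.00938 and -0.0115 from saline in the control libraries and -0.226, -0.275 and -0.331 in the treated ones, with no overlap. Before the correction 262 were called lower and 64 higher (median -0.21), without library 3 258 fell and 20 rose (median -0.25), and with GC removed 250 fell and 28 rose (median -0.22). The fall was there at all levels of expression, with medians of -0.24, -0.28 and -0.3 in 3 equal classes of low, middle and high saline level. X-linked genes took 1.471 ± 0.00898% of counts in saline and 1.295 ± 0.0179% at 100 mg/kg (SD, n = 3; 2-sided exact permutation p = 0.1, the smallest that 3 against 3 can give).

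Among X-linked genes with small p-values, picked after their values were seen, Cylc1, the other cylicin (chromosome X from 111110418 to 111125854), had 209, 191 and 184 CPM in saline and 98.9, 99.5 and 89.3 CPM at 100 mg/kg (-1.16 ± 0.052, adjusted p = 3.07e-18). Tent5d, a poly(A) polymerase of germ cells, had 81.2, 76.3 and 77.3 CPM in saline and 41.7, 38.7 and 35.5 CPM at 100 mg/kg (-1.03 ± 0.058). In both, every treated library was far below every control. Rpgr, a ciliary GTPase regulator (-0.80 ± 0.055), Cul4b, a ubiquitin ligase scaffold (-0.75 ± 0.051), the cohesin gene Stag2 (-0.77 ± 0.06) and the RNA helicase gene Ddx3x (-0.83 ± 0.065) fell too. Of 41 genes on the Y chromosome, many of which have near-identical copies, 13 fell and 1 rose (median -0.28, and -0.023 before the correction). In the other treated groups the X-linked median lay -0.0837, -0.0653 and -0.0587 from the autosomal one at 50 mg/kg. It was -0.084, -0.0632 and -0.0856 in the libraries of 200 mg/kg, where those of 100 mg/kg had -0.25, -0.301 and -0.367. Those groups share the saline libraries with this comparison, and the difference between doses was not tested.

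**Figure D5:**
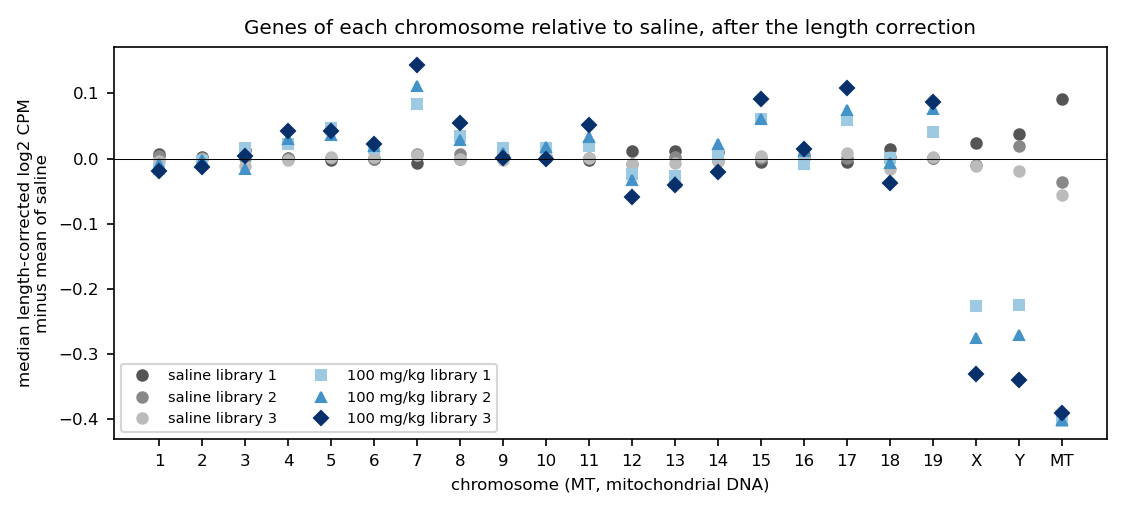
Median length-corrected log2 CPM of the tested genes of each chromosome minus the mean of the saline libraries (vertical axis), with 1 point per library (grey circles, saline; blue symbols, 100 mg/kg). Autosomes stay near 0, chromosome 7 being the highest at 0.0835, 0.111 and 0.144, and the 100 mg/kg libraries lie at -0.226, -0.275 and -0.331 for the X chromosome, with Y and mitochondrial genes (41 and 12 genes) similarly low.

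Some strong calls existed on 1 side of the correction alone. Short spermatid genes were called higher before it and did not pass after: Spata19, of the sperm mitochondrial sheath (998 bases), had 505, 508 and 511 CPM in saline and 632, 666 and 702 CPM at 100 mg/kg, a log2 fold change of 0.39 before and 0.079 ± 0.034 after, although it passed without library 3 (0.10). Cypt4 (0.40 and 0.0006 ± 0.035) and the dynein light chain gene Dynlrb2 (0.51 and 0.085 ± 0.049) also lost the call, with Fam183b, Cst8 and Aif1. None of these passed after the correction without library 3. With GC removed as well, Spata19 (0.13), Cst8 (0.13) and Dynlrb2 (0.12) were called higher, and Cypt4, Fam183b and Aif1 were not. Long genes were called lower before it and not after: Ep400, a chromatin remodeller of 10685 bases, had 414, 422 and 414 CPM in saline and 316, 318 and 301 CPM at 100 mg/kg, -0.42 before and 0.0019 ± 0.037 after, but -0.52 with the median length of its transcripts. Eif4g3 (-0.40 and -0.043 ± 0.033), Dnhd1, Qrich2 and Hspa4l followed. With GC removed as well, Qrich2 was called lower (-0.13, adjusted p = 0.000169) and Hspa4l higher (0.22, adjusted p = 5.46e-07). Ep400, Eif4g3 and Dnhd1 were not called in that fit. Plec, the linker protein plectin, was called lower before (-0.37) and higher after (0.13 ± 0.04), and it was -0.087 with GC removed and not called without library 3.

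The correction also made calls where CPM hardly differed. Dnajb14, a co-chaperone with a transcript of 9477 bases, had 259, 248 and 256 CPM in saline and 259, 267 and 269 CPM at 100 mg/kg, which overlap, and was called higher at 0.45 ± 0.045 (adjusted p = 4.7e-10; 0.057 before). Enah (0.42 ± 0.044), Ppm1a (0.37 ± 0.04), Serbp1 (0.41 ± 0.044), Ttbk2 (0.53 ± 0.056) and Ddhd1 (0.35 ± 0.038) were of the same kind, and Serbp1, read at 258, 246 and 233 CPM in saline and 237, 230.3 and 224 CPM at 100 mg/kg, was lower on average before the correction. Short genes called lower after it alone were Pdcl2, a phosducin-like protein of spermatids (-0.33 ± 0.035), Morn3 (-0.38 ± 0.047), Spz1 (-0.29 ± 0.036) and mt-Nd6 (-0.53 ± 0.052). With the median length of a gene's transcripts in place of the longest, Ppm1a had -0.03 and Serbp1 -0.17, so their direction, like the value of Ep400, depended on which transcript stood for the gene.

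Among calls lost without the third library, the 4 largest rises and the 4 largest falls above 1 CPM were all of low-abundance genes. Tie1, a receptor kinase of endothelium, had 0.796, 0.843 and 0.772 CPM in saline and 1.48, 1.27 and 1.98 CPM at 100 mg/kg, with library 3 highest (1.08 ± 0.32, adjusted p = 0.00554, and 0.0561 without it). Relt, Pcdhga3 and Frrs1l were others that rose, and Ms4a4d, the mitochondrial carnitine transferase gene Cpt1b, Enox2 and Rtl4 were others that fell, with adjusted p from 0.0513 (Rtl4) to 0.0963 (Enox2) without library 3.

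No source used here states whether counting used strand, and reads of overlapping genes could not be told apart. Among the genes named here that were chosen by rule, Acss3, Arg2, B2m, Col4a2, Col9a3, Cpt1b, Ctnnd1, Cypt4, Dnah17, Dnhd1, Galntl6, Ift74, Irf9, Mrpl13, Ndufb5, Nfkbib, Ogn, Pcdhga3, Plec, Rag1, Serbp1, Sirt2, Sycp3, Tap1, Ttbk2, mt-Nd5 and mt-Nd6 overlap another gene of the table.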

How the data were processed

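Per the labels' protocols, RNA was extracted with Trizol and polyadenylated RNA was made into libraries with the TruSeq Stranded mRNA kit. The authors deposited whole-number counts per gene for 12 libraries, used as deposited. Trimmomatic, STAR, featureCounts, DESeq2 and the build mm10 (GRCm38) stand in the submitters' processing notes, with versions, roles and settings (strand counting included) not given in the sources used here. Totals of 16310555 to 18810691 counts in the 6 libraries set the precision.

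All 12 libraries in 4 groups were fitted with edgeR 4.0.16 in R 4.3.3 (filterByExpr by group, TMM scaling, robust quasi-likelihood fit with 8 residual degrees of freedom), and the contrast of 100 mg/kg with saline was tested at a Benjamini-Hochberg adjusted p under 0.05. For the length correction, log2 CPM (prior count 2) of each library minus the mean of the 12 libraries was smoothed over log2 of the longest GENCODE M21 transcript (lowess span 0.3), and the trend entered the fit as an offset. The 29 tested genes without a length took no trend. The correction takes a length trend out whatever made it, so real differences that follow length go with it. The further fit did the same for transcript GC content after length. DESeq2 1.42.0, limma 3.58.1 (voom with quality weights), other scalings, filters, spans, lengths and left-out libraries were the alternatives. The fits were tested on simulated data.

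Same-numbered libraries of the 2 groups had correlated deviations of 0.037, -0.012 and 0.048, so the numbers did not pair them. Genes without a symbol (57) held 0.0426 to 0.0469% of counts. The members, gene lists and tests were chosen with earlier results of these data known. The genes named were the 15 largest rises and 15 largest falls called in all 4 fits at a mean of at least 1 CPM, without overlap and leaving out predicted genes, the 6 with the smallest p in each direction called with or without the correction alone, the 4 largest changes in each direction whose call rests on library 3, the 4 with the smallest p of each list and a fixed set. Other list members named are examples chosen after their values were seen.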

Additional observations from a re-analysis of the deposited data

How the results depend on the processing

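The counts of calls kept within 1.5 times of their reported values under every other scaling, filter, tool, span, length and left-out library that was run. They were 8194 and 7252 with RLE size factors, 8233 and 7249 with library size alone, 7611 and 6611 with DESeq2, 8965 and 8225 with voom, and 7530 and 6713 with the 6 libraries alone, without and with the length correction. Because the length trend takes up a library's scaling as well, the corrected counts could hardly change with the scaling. Asking for at least 1.5-fold left 2446 and 1741. The same-numbered libraries were not paired, and the fit with the replicate block called 8095 and 7180. Leaving out 1 library at a time gave 7348 to 8245 and 6427 to 7254 calls and a rho with length between -0.42 and -0.47. That rho was -0.36 with no count filter and -0.27 with the median length of a gene's transcripts, and the cause was not tested.

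The length-corrected direction of some named genes and lists reversed. With no correction Ep400 had -0.42, Plec -0.37, Hspa4l -0.34, Enah -0.015, Serbp1 -0.092, Ddhd1 -0.053, Cox7b2 0.015, B2m 0.028, Slc16a7 -0.16 and Dnah1 -0.36. With the median transcript length Ep400 had -0.52, Hspa4l -0.40, Ppm1a -0.029, Serbp1 -0.17, Slc16a7 -0.059 and Cldn11 0.0011. With length and GC removed Plec had -0.087, Gpx4 -0.056, Prm1 -0.071 and the testis serine kinase list -0.012, and without library 3 as well these were -0.10, -0.056, -0.072 and -0.0071, a setting chosen after seeing the data. With a GC trend alone removed Ep400 had -0.46, Plec -0.65, Hspa4l -0.10, mt-Nd1 0.17, Cox7b2 0.33, mt-Nd6 0.27, Pdcl2 0.23, Psmc6 0.047, B2m 0.23, Col4a2 -0.11, Stk35 -0.0054, mt-Co1 0.15 and Dnah1 -0.42, the chaperone list 0.0057 and the mitochondrially encoded list 0.29. Over all named genes and alternatives 5722 values kept direction and call, 129 lost the call, 85 gained it and 35 reversed.

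Genes under 1 CPM rest on few reads. A gene with too few counts in 1 group was tested only where other groups had enough, so the count filter favoured a difference in that direction. Leaving out the third 100 mg/kg library leaves 2 treated libraries, with the spread pooled over all groups.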

Other observations

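Energy genes of germ cells and genes of general cell upkeep were measured in the same comparison. In germ cell glycolysis 8 rose and 13 fell of 29 (median -0.069, and 0.0011 before the correction). Ldhc, the sperm lactate dehydrogenase, had 4264, 4292 and 4222 CPM in saline and 5070, 5223 and 5569 CPM at 100 mg/kg (0.068 ± 0.028, adjusted p = 0.0466 in edgeR's quasi-likelihood test). Gapdhs, the sperm form of GAPDH, had 597, 609.9 and 600.5 CPM in saline and 744, 745 and 881 CPM at 100 mg/kg (0.16 ± 0.039, adjusted p = 0.000812). The lactate transporter gene Slc16a7 had 794, 770.0 and 755 CPM in saline and 742, 697 and 641 CPM at 100 mg/kg, lower at 100 mg/kg, and its value was 0.27 ± 0.033 with the correction, -0.16 without it and -0.059 with the median transcript length. The hexokinase gene Hk1 had 2280, 2285 and 2292 CPM in saline and 1906, 1811 and 1624 CPM at 100 mg/kg (-0.23 ± 0.033). The tight junction gene Cldn11 of Sertoli cells had 69.2, 71.8 and 74.6 CPM in saline and 67.8, 72.9 and 68.7 CPM at 100 mg/kg (-0.20 ± 0.052, adjusted p = 0.00186). In the proteasome 7 rose and 11 fell of 38 (median -0.047, and 0.14 before the correction), and among long chromatin and DNA repair genes 3 rose and 20 fell of 38 (median -0.17, and -0.53 before the correction).

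Of core spliceosome genes 16 rose and 8 fell of 43 (median 0.085, and 0.22 before the correction). Of translation factors 11 rose and 17 fell of 53 (median -0.042, and -0.015 before the correction), with Eif3a, a large subunit of the initiation factor eIF3, at 269, 247 and 244 CPM in saline and 129.8, 124 and 108 CPM at 100 mg/kg (-0.87 ± 0.045). Among clock genes 4 rose and 3 fell of 21, 19% and 14.3%, against 23.5% and 22.7% of all genes (median 0.094, and 0.037 before the correction). Per1 was higher (75.5, 74.8 and 82.1 CPM in saline and 95.5, 94.9 and 97.5 CPM at 100 mg/kg, 0.47 ± 0.05) and Clock lower (-0.35 ± 0.077). Of fibroblast and matrix genes 3 rose and 4 fell of 25 (median 0.078, and -0.11 before the correction), with the small proteoglycan genes Ogn (55.4, 55.9 and 51.5 CPM in saline and 24.1, 22.9 and 18.9 CPM at 100 mg/kg; -1.37 ± 0.076) and Dcn (-0.48 ± 0.053) lower. In Cfap, radial spoke and tektin genes 12 rose and 17 fell of 41 (median -0.078, and 0.023 before the correction), and in the smaller axonemal dynein chains 10 rose and 8 fell of 28 (median 0.083, and 0.21 before the correction).

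The length gradient was small in the other treated groups, where rho of a library's log2 level with transcript length was -0.084, 0.107 and 0.0815 at 50 mg/kg. The libraries of 200 mg/kg had 0.114, 0.144 and 0.134, and those of 100 mg/kg -0.397, -0.431 and -0.491. X-linked genes took 1.4 to 1.41% of counts at 50 mg/kg, 1.27 to 1.31% at 100 mg/kg and 1.39 to 1.4% at 200 mg/kg, and 1.46 to 1.48% in saline.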
